A study of Mus musculus with 72 samples.

Results

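Transcripts of 4 matrix metalloproteinases, Mmp8, Mmp9, Mmp12 and Mmp13, were followed through 36 mouse tumours. They were taken as the rows of the deposited count table that carry these gene symbols, which gave 4 of the 1224 genes measured. The 4 were chosen with earlier results of these data known, so their ranks among all genes below may partly reflect that choice. All 4 were detected in every tumour and passed the filter on low counts, as 1038 of the 1224 genes did. The line injected was 4T1, which derives from a BALB/c mammary carcinoma, and the hosts were female BALB/c mice aged 6 to 12 weeks. Cells went into the thigh muscle on day -6, treatment was given on day 0 and tumours were taken on day 6. Orthotopic is the word used in the labels, although the design text places the tumour in the thigh. Each group held 9 mice. Control mice received 400 µg of an isotype antibody, and BA mice received 492 µg of bintrafusp alfa (BA, labelled M7824), an antibody against PD-L1 fused to the part of a TGF-β receptor that lies outside the cell and traps TGF-β. RT mice received radiation and the isotype antibody, and BA+RT mice received BA and radiation. The sources used here give neither the radiation dose nor the antibody doses of the irradiated groups.

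Matrix metalloproteinases are zinc-dependent enzymes that cut proteins of the extracellular matrix. They are made as inactive precursors, are switched on by plasmin, other proteases or each other, and are held in check by the TIMP inhibitors. Mmp9 (gelatinase B) cuts denatured collagen and basement membrane collagen and can release growth factors, TGF-β among them, from the matrix. Mmp8 (neutrophil collagenase) and Mmp13 (collagenase 3) cut intact fibrillar collagen, and Mmp12 (macrophage elastase) cuts elastin. Neutrophils store Mmp8 and Mmp9 in granules, macrophages make Mmp12, and osteoclasts and fibroblasts are among the cells known to make Mmp9 and Mmp13 respectively. In tumours these enzymes are known for their part in invasion, vessel growth and the recruitment of immune cells.

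Each transcript was read through 1 short amplicon, so the values below report that stretch of the transcript and no other. The coding letters of the 4 amplicons are shown because they are what was counted. They come from the GENCODE vM21 transcripts of GRCm38, are written 5′ to 3′ on the plus strand, and carry the stop codon in capitals where the amplicon reaches it.
Mmp8, exon 10 of 10, chr9:7567448-7567538: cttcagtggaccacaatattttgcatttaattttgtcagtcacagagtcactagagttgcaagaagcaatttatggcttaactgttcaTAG
Mmp9, exon 8 of 13, chr2:164951146-164951240: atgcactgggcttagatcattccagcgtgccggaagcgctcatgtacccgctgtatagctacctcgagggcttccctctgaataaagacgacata
Mmp12, exon 3 of 10, chr9:7349748-7349841: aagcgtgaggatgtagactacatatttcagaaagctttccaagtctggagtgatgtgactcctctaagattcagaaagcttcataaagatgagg
Mmp13, exon 10 of 10, chr9:7282037-7282118: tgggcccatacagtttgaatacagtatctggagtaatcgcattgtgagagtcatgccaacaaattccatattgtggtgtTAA
The Mmp9 and Mmp12 amplicons lie wholly in coding sequence, whereas those of Mmp8 and Mmp13 run 4 and 13 bases past the stop codon into the 3′ untranslated region. No other gene is annotated at any of these positions. Outside its own gene, the closest match of any of the 4 in the mouse transcripts was between Mmp12 and Mmp27, with 32 identical bases in an aligned stretch of 40.

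Mmp8 (chr9:7558456-7568485), Mmp12 (chr9:7344381-7369499) and Mmp13 (chr9:7272514-7283331) lie in one cluster of metalloproteinase genes. From the start of Mmp13 to the end of Mmp8 the stretch measures 296 kb and holds, in order, Mmp13, Mmp12, Mmp1b, Mmp3, Mmp1a, Mmp10 and Mmp8. Mmp9 (chr2:164940780-164955850) stands on another chromosome. Mmp1b and Mmp10 were not on the panels.

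Levels are given as CPM, the counts scaled to a common library size after TMM, a normalization that sets the bulk of the genes equal between tumours. Each tumour was read with 2 amplicon panels. Mmp12 was on panel 1 and the other 3 were on panel 2, so the level of Mmp12 cannot be set beside theirs. Library totals ranged from 959532 to 2616197 counts on panel 1 and from 314621 to 841046 on panel 2. Irradiated tumours were read more deeply, with median panel 2 totals of 626610 in RT and 675225 in BA+RT against 538121 in control and 365797 in BA. The epithelial marker Epcam, expected in a carcinoma, was read at 4173 to 14439 CPM in every tumour, and none of 8 skeletal muscle markers was on the panels, so a share of thigh muscle could not be checked with them. The tests compare 9 mice with 9 through a model fitted to all genes of a panel (edgeR's quasi-likelihood test), with p adjusted over the 1038 genes, and a change is called below 0.05.

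Mmp9 fell with BA, without and with radiation, to levels below those of any tumour given the isotype antibody. In control tumours it ran from 4673 to 8906 CPM with a median of 7554, and in BA tumours from 1116 to 2092 CPM with a median of 1459.7. In RT tumours it ran from 3782 to 9833 CPM with a median of 6444. In BA+RT tumours it ran from 1346 to 3247 CPM with a median of 2152. Every tumour given BA thus lay below every tumour given the isotype antibody, irradiated or not. The group means were 7479.6 ± 1377 CPM in control (SD, n = 9), 6468 ± 1830.5 in RT, 2116 ± 543 in BA+RT and 1560.2 ± 380.1 in BA. These rest on 379 to 5887 counts per library.

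BA against control lowered Mmp9 4.79-fold (log2 fold change -2.26, SE 0.17, edgeR adjusted p = 1.73e-12), the largest fall of all 1038 genes in that comparison. BA+RT against RT lowered it 3.06-fold (log2 fold change -1.61, SE 0.16, edgeR adjusted p = 1.06e-08), the fall that ranked 3 by size. BA+RT against control gave a 3.53-fold fall (log2 fold change -1.82, edgeR adjusted p = 5.98e-11), and BA against RT a 4.14-fold difference (log2 fold change -2.05, edgeR adjusted p = 4.86e-12). The groups did not overlap in any of these 4 comparisons. Groups without overlap were found for 2.79% of all genes in BA against control, 0.771% in BA+RT against RT, 7.23% in BA+RT against control and 16.6% in BA against RT. BA+RT tumours held more Mmp9 than BA tumours, 1.36-fold (log2 fold change 0.44, SE 0.16, edgeR adjusted p = 0.022), with 5 of 9 tumours above all BA tumours. That call was lost without BA mouse 16 (log2 fold change 0.37, edgeR adjusted p = 0.0565) or without BA+RT mouse 37 (0.34, edgeR adjusted p = 0.0652).

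**Figure D1:**
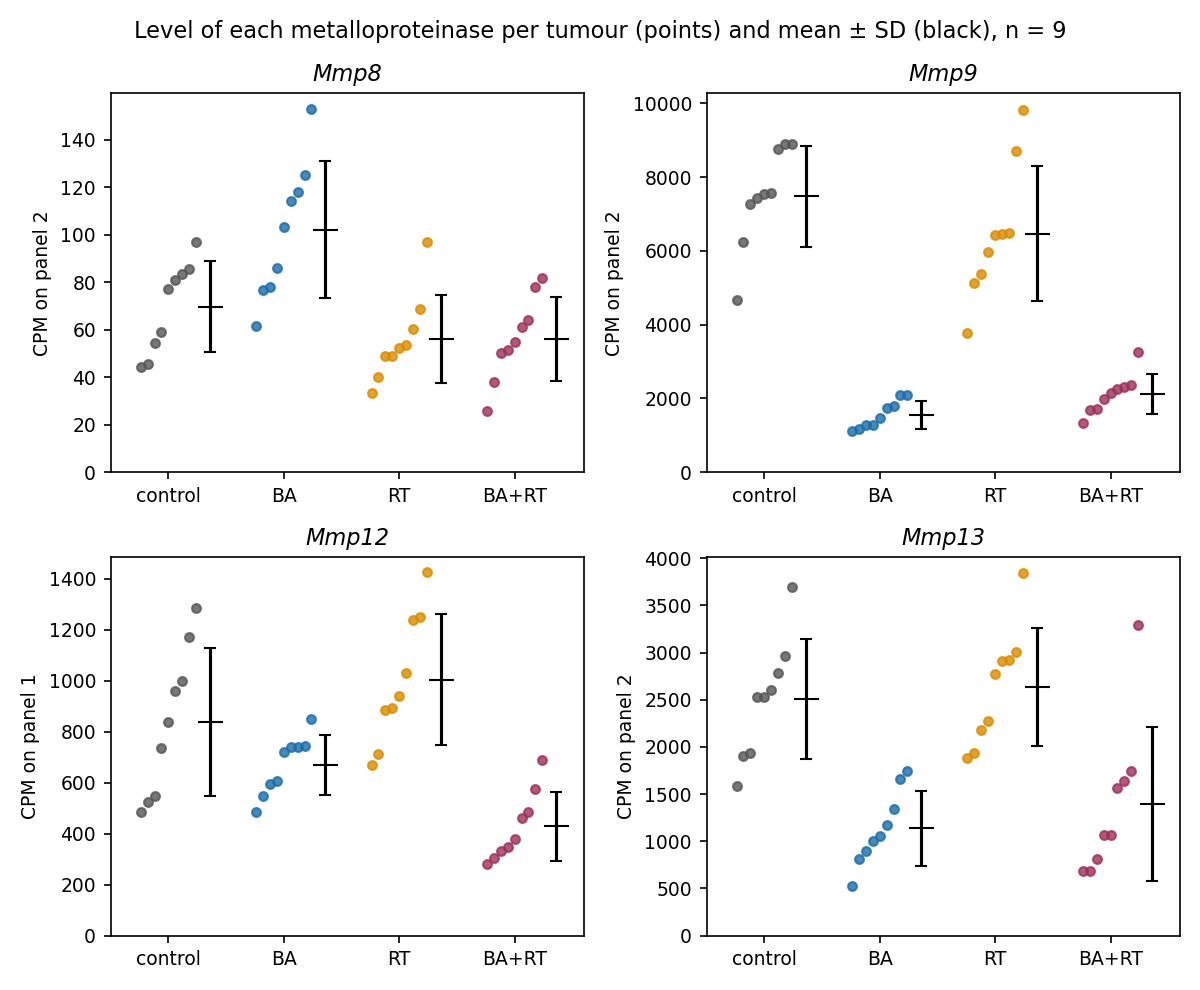
Level of each metalloproteinase in CPM (vertical axis, from 0) in the 9 tumours of each group (points, ordered by value), with the group's mean and SD in black. Every Mmp9 value of the BA and BA+RT groups lies below 3782 CPM, the lowest value of the control and RT groups together, and 1 BA+RT tumour stands high for Mmp13 at 3297 CPM.

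The collagenase Mmp13 also fell with BA in both settings, by less than Mmp9. It ran from 1588 to 3691 CPM in control tumours with a median of 2532, and from 530 to 1749 CPM in BA tumours with a median of 1057. In RT tumours it ran from 1886 to 3848 CPM with a median of 2777. In BA+RT tumours it ran from 684 to 3297 CPM with a median of 1069. The BA tumours were low as a group, with 7 of 9 below every control tumour and all 9 below every RT tumour, whereas 6 of 9 BA+RT tumours lay below every control tumour. Of the other 3, those of mice 41 and 45 lay near the low end of the control range, at 1635 and 1748 CPM, and that of mouse 37 lay high in it. The group means were 2504 ± 636 CPM in control (SD, n = 9), 1138 ± 396 in BA, 2637 ± 629 in RT and 1396 ± 821 in BA+RT.

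BA against control lowered Mmp13 by 2.20-fold (log2 fold change -1.14, SE 0.24, edgeR adjusted p = 0.000558), the fall that ranked 12 of all genes. BA+RT against RT lowered it 1.89-fold (log2 fold change -0.92, SE 0.24, edgeR adjusted p = 0.0103), with 8 of 9 tumours below all RT tumours. BA+RT against control gave a log2 fold change of -0.84 (edgeR adjusted p = 0.00396) and BA against RT one of -1.21 (edgeR adjusted p = 7.16e-05, no overlap). BA+RT and BA tumours did not differ past the threshold (log2 fold change 0.30, 95% confidence interval -0.19 to 0.79). Without mouse 37 the fold changes became -1.19 in BA+RT against RT and -1.11 in BA+RT against control on the log2 scale, and both stayed called.

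The other collagenase, Mmp8, had the lowest counts of the 4 members and was highest in BA tumours. It was read from 15 to 75 counts per library, so its values carry more counting error than those of the others. It ran from 44.3 to 96.8 CPM in control tumours with a median of 77.1, and from 61.7 to 153 CPM in BA tumours with a median of 103. In RT tumours it ran from 33.2 to 96.8 CPM with a median of 52.4. In BA+RT tumours it ran from 25.8 to 81.6 CPM with a median of 54.9. All 4 groups overlapped. The order of the means was BA, control, BA+RT and RT, at 102 ± 28.8, 69.6 ± 19.2, 56.1 ± 17.8 and 55.9 ± 18.5 CPM (SD, n = 9), and no 2 neighbours in that order differed past the threshold.

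Mmp8 was lower in BA+RT than in BA tumours (1.79-fold, log2 fold change -0.84, SE 0.21, edgeR adjusted p = 0.000844), and higher in BA than in RT tumours (1.81-fold, log2 fold change 0.85, SE 0.21, edgeR adjusted p = 0.000696). BA against control gave 1.44-fold more Mmp8 (log2 fold change 0.52, SE 0.21), with 5 of 9 BA tumours above all controls, and missed the threshold (edgeR adjusted p = 0.0559). DESeq2's Wald test (log2 fold change 0.53, adjusted p = 0.0379) and limma on the deposited log2 values (0.15, adjusted p = 0.0256) placed that comparison past it. BA+RT against RT left Mmp8 at a log2 fold change of 0.01 (95% confidence interval -0.41 to 0.43).

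Mmp12, the macrophage elastase, fell with BA in irradiated tumours. It ran from 486 to 1285 CPM in control tumours with a median of 839.5, and from 486 to 851 CPM in BA tumours with a median of 719. In RT tumours it ran from 668 to 1427 CPM with a median of 938. In BA+RT tumours it ran from 280.4 to 689 CPM with a median of 378. The BA+RT tumours were the low ones, 8 of 9 of them below every RT tumour and 7 of 9 below every control and every BA tumour, while 8 of 9 BA tumours lay inside the range of the controls and 1 lay just below it. The means were 1004 ± 256 CPM in RT (SD, n = 9), 838 ± 289 in control, 669.5 ± 117 in BA and 428 ± 137 in BA+RT.

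BA+RT against RT lowered Mmp12 by 2.35-fold (log2 fold change -1.23, SE 0.19, edgeR adjusted p = 2.09e-05), the fall that ranked 6 of all genes. It was also lower in BA+RT than in control (log2 fold change -0.97, edgeR adjusted p = 6.24e-05) and than in BA tumours (log2 fold change -0.65, SE 0.19, edgeR adjusted p = 0.00399). BA against RT gave a log2 fold change of -0.58 (edgeR adjusted p = 0.00794). BA against control gave one of -0.32 (95% confidence interval -0.70 to 0.05, edgeR adjusted p = 0.203).

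Of the 4 members, then, Mmp9 and Mmp13 were called lower with BA alone, where 27% of all genes were called in either direction. Mmp9, Mmp12 and Mmp13 were called lower in BA+RT than in RT, where 10.8% of all genes were called. The same 3 were called lower in BA+RT than in control, against 47.6% of all genes. In BA+RT against BA, Mmp8 and Mmp12 were called lower and Mmp9 higher, against 53.5%, and in BA against RT all 4 were called, Mmp8 higher and the other 3 lower, against 53.8%. These last 3 shares are large, so a call there says little of the members as a set. BA+RT and BA tumours did not separate without overlap for any member, as 11.7% of all genes did. The comparisons share groups and are not independent of each other.

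**Figure D2:**
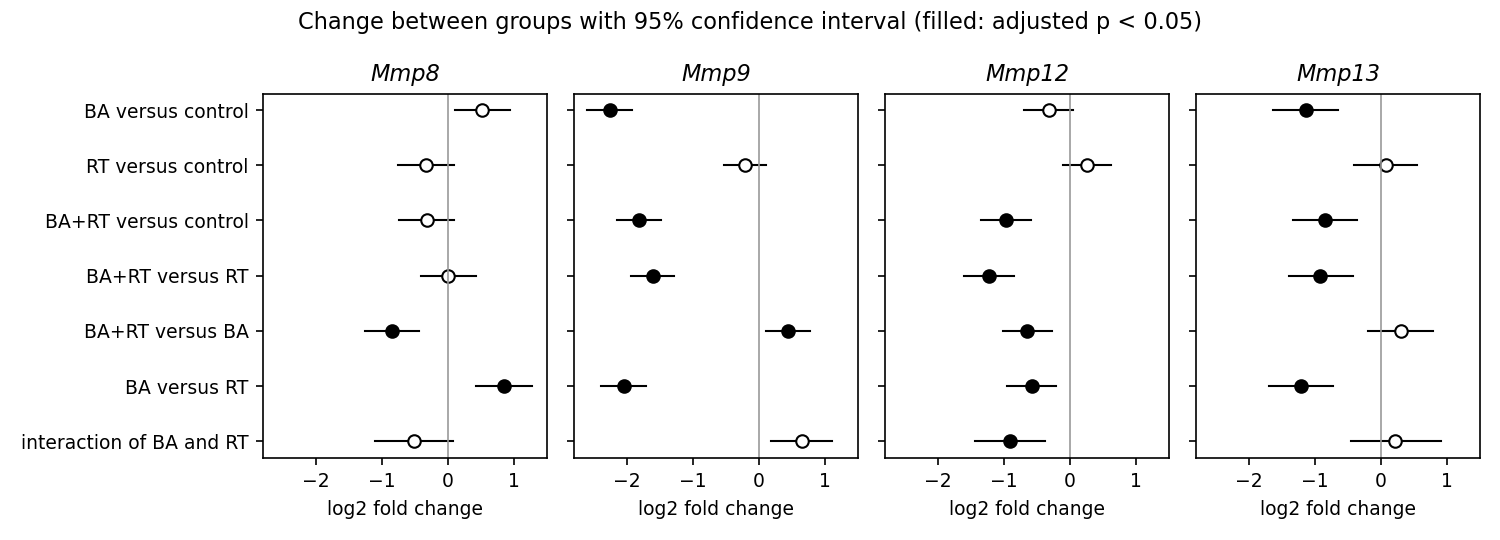
Log2 fold change (horizontal axis) of each member in the 6 comparisons of groups and in the interaction, as points with 95% confidence intervals, filled where the adjusted p is below 0.05. Mmp9 stands farthest left with BA, at -2.26 and -1.61, and all 4 members are open points for RT against control.

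Radiation with the isotype antibody moved none of the 4 past the threshold. edgeR called 0 of 4 members between RT and control, where it called 41.6% of all genes, 0 of the 4 had an unadjusted p below 0.05, and DESeq2's Wald test and limma called 0 as well. The log2 fold changes were -0.33 for Mmp8 (95% confidence interval -0.75 to 0.09), -0.21 for Mmp9 (-0.53 to 0.11), 0.26 for Mmp12 (-0.11 to 0.63) and 0.08 for Mmp13 (-0.40 to 0.55). The RT and control groups overlapped for every member, whereas 7.61% of all genes separated without overlap. These intervals include changes in both directions, so the members are not shown to be equal in the 2 groups. TMM sets the bulk of the genes equal, and scaling to the 9 reference genes of the panels instead raised the median over the 1038 genes from -0.01 to 0.188 on the log2 scale. On that scale Mmp12 was higher in RT (log2 fold change 0.46, edgeR adjusted p = 0.0303), and the other 3 members stayed uncalled.

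The interaction is the change with BA in irradiated tumours minus that in unirradiated ones, and it asks if radiation altered what BA did. For Mmp12 it was -0.91 on the log2 scale (SE 0.26, 95% confidence interval -1.44 to -0.37, edgeR adjusted p = 0.0236), so the fall with BA was larger in irradiated tumours. For Mmp9 it was 0.65 (SE 0.23, 95% confidence interval 0.19 to 1.11, edgeR adjusted p = 0.0695), which missed the threshold. DESeq2's Wald test placed that value past it (0.64, adjusted p = 0.0404). Mmp8, at -0.51 (95% confidence interval -1.11 to 0.08), and Mmp13, at 0.22 (-0.46 to 0.91), were not called. The interaction was called for 8.29% of all genes.

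Within groups the members did not all vary together. After each group's mean was subtracted, log2 CPM of Mmp9 and Mmp13 had a Pearson r of 0.606 over the 36 tumours (Spearman rho 0.52), and Mmp12 and Mmp13 one of 0.554 (rho 0.556). Without BA+RT mouse 37 the former was 0.532, the lowest value with any 1 tumour left out, and the latter was at least 0.519 with any 1 left out. Mmp9 and Mmp12 gave 0.298, Mmp8 and Mmp12 0.326, and Mmp8 and Mmp13 0.368. Mmp8 and Mmp9 gave -0.16, and from -0.277 (without RT mouse 22) to -0.102 (without BA mouse 16) with 1 tumour left out. Mmp8 was read at only 15 to 75 counts per library, and counting error weakens any correlation with it. Values on 1 panel share a library and its scaling, so these correlations are descriptions only.

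**Figure D3:**
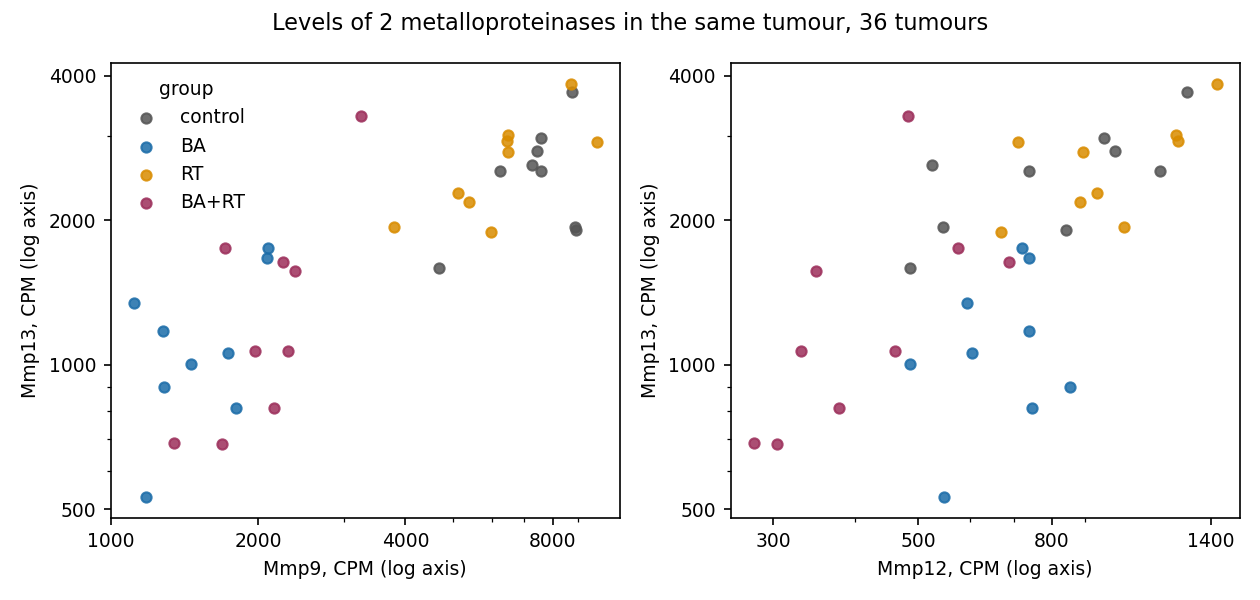
Mmp13 against Mmp9 (left) and against Mmp12 (right) in CPM on log axes, 1 point for each of the 36 tumours, coloured by group. The tumours given BA lie apart on the Mmp9 axis, and the high BA+RT point is mouse 37, at 3297 CPM of Mmp13 and 3247 CPM of Mmp9.

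The genes most like each member within groups differed between members. For Mmp9 they were Reps1, an endocytosis adaptor (r = 0.619), Pdgfrb, the receptor of pericytes and fibroblasts (0.59), Itga2, a collagen receptor (0.582), and Ilk, a kinase of integrin contacts (0.562), and the least like was Gsta4 (-0.568). For Mmp13 they were the sterol regulator Srebf2 (0.627), Itga2 (0.622), the osteoclast fusion gene Dcstamp (0.561) and the cluster neighbour of Mmp13, Mmp3 (0.555). The rank correlation of Mmp13 with Dcstamp was lower (Spearman rho 0.374). The gene least like Mmp13 was Rassf4 (-0.545). For Mmp12 they were the neutrophil-attracting chemokines Cxcl2 (0.58) and Cxcl3 (0.564), Ppp2r5c (0.563) and Tiparp (0.534), and again Rassf4 was least like (-0.619). For Mmp8 they were the interleukin-1 decoy receptor Il1r2 (0.515), Pthlh (0.498), Lnpep (0.47) and Thap3 (0.461), with Phex least like (-0.447). Each r is over 36 tumours and was picked as an extreme among all tested genes other than the members, so its size is partly due to that choice. With rank correlation in place of Pearson's, 2 or 3 of the 4 genes were the same.

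Across all tumours, with the differences between groups left in, other genes came first. Mmp9 was most like the pericyte proteoglycan gene Cspg4 (r = 0.876), Ncald (0.869), Cd200 (0.831) and Cd40 (0.824). Mmp13 was most like Acp5 (0.767) and Ctsk (0.735), which encode enzymes of bone-resorbing osteoclasts, then Ncald (0.69) and Cd40 (0.668). Mmp12 was most like Cxcr4 (0.737), Ripk3 (0.648), Cd93 (0.633) and Cd40 (0.612), and Mmp8 most like Pthlh (0.7), Map3k1 (0.673), Cd1d1 (0.666) and Rap1gap (0.661). These values hold the same group differences as the tests above and add no evidence to them.

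Of 28 other metalloproteinase genes listed, 4 were on the panels, and none fell as far with BA as Mmp9 or Mmp13. Mmp3 (stromelysin), which lies between Mmp12 and Mmp8 on chromosome 9, fell from 4509 ± 836 to 3058 ± 653 CPM with BA (SD, n = 9, log2 fold change -0.56, edgeR adjusted p = 0.00398). Mmp14, the membrane-bound activator of Mmp2, fell by 0.22 on the log2 scale (edgeR adjusted p = 0.00747). Mmp1a, at -0.57 (edgeR adjusted p = 0.134), and the gelatinase Mmp2, at -0.41 (0.105), were not called. The median of the 4 was -0.48 against 0 for all genes. When irradiated tumours were compared, BA+RT against RT, the log2 fold changes were -0.37 for Mmp2, -0.29 for Mmp3, -0.22 for Mmp1a and 0.02 for Mmp14 (edgeR adjusted p = 0.204, 0.215, 0.722 and 0.879), not called under any of the 4 scalings.

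Radiation moved none of the 4 members past the threshold. The other 4 metalloproteinases tested were called, 1 higher and 3 lower, in a comparison that called 41.6% of all genes. The uncalled estimates for Mmp8 (-0.33) and Mmp9 (-0.21) were about as large as those for Mmp3 and Mmp14. The members were not tested against these other genes. Mmp1a fell 3.13-fold in RT against control, from 95.3 ± 42.6 to 31.0 ± 12.9 CPM (SD, n = 9, log2 fold change -1.65, edgeR adjusted p = 2.46e-05), and Mmp2 rose by a log2 fold change of 0.53 (edgeR adjusted p = 0.0205). Mmp3 (-0.39, edgeR adjusted p = 0.0266) and Mmp14 (-0.20, 0.00822) were lower as well, though not under reference gene scaling, where they stood at -0.24 and -0.04.

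The inhibitors of these enzymes did not move as one either. Of 6 listed, 4 were tested. Timp1 fell with BA from 7559 ± 1902 to 3980.1 ± 513 CPM (SD, n = 9, log2 fold change -0.92, edgeR adjusted p = 1.16e-05) and in BA+RT against RT (-0.59, edgeR adjusted p = 0.00645). Timp3 fell alike (-0.79, edgeR adjusted p = 0.00444, and -0.70, 0.0195). With radiation alone both rose, Timp1 by a log2 fold change of 0.60 and Timp3 by 0.50 (edgeR adjusted p = 0.00101 and 0.0447), where Mmp9 and Mmp13 were not called. Timp2 was called higher with BA (0.18, edgeR adjusted p = 0.04), but not with library totals or reference gene factors, and the rare Timp4 was not called.

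**Figure D4:**
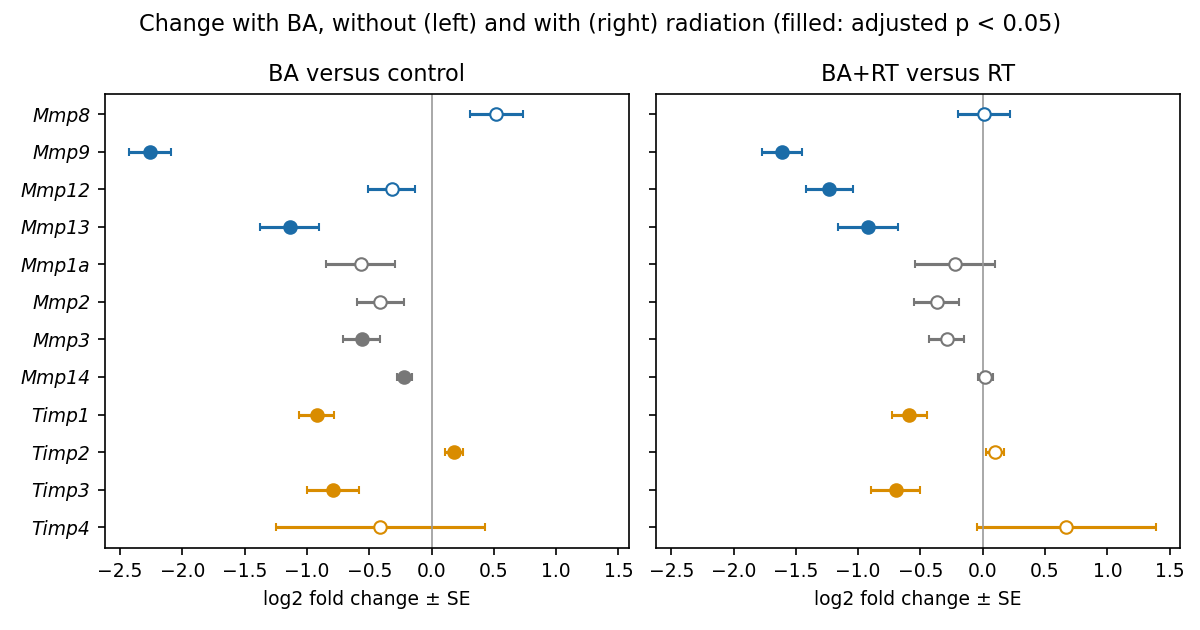
Log2 fold change with its SE for BA against control (left) and BA+RT against RT (right), for the 4 members (blue), the other 4 metalloproteinases on the panels (grey) and the TIMP inhibitors (orange), filled where the adjusted p is below 0.05. Mmp9 lies farthest left in both, and Mmp12 is filled only on the right, at -1.23.

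Among genes that bear on activation of the precursors, 10 of 18 listed genes were tested. With BA alone 3 rose and 4 fell, with a median of -0.13 against 0 for all genes. The urokinase gene Plau, whose product makes plasmin, fell from 5813 ± 663 to 3592 ± 643 CPM (SD, n = 9, log2 fold change -0.69, edgeR adjusted p = 4.2e-07). The cathepsin gene Ctsk (-1.0, edgeR adjusted p = 0.000303) and the tissue plasminogen activator Plat (-0.23, 0.0445) fell too, the latter not with DESeq2 size factors. The genes for the granule serine proteases cathepsin G and proteinase 3 rose. Ctsg ran from 24.8 to 93.7 CPM in BA tumours and from 0 to 6.3 CPM in controls (edgeR adjusted p = 8.31e-07), and Prtn3 rose by a log2 fold change of 1.74 (edgeR adjusted p = 7.16e-07). Ctsl was the other riser, at 0.20 (edgeR adjusted p = 0.0112), though not with reference gene factors. With radiation, Ctsg and Prtn3 rose and Ctsb fell in BA+RT against RT. Ctsg was near the floor there, at 0 to 2.71 CPM in RT (median 1.19) and 0 to 28.3 CPM in BA+RT tumours (median 1.74).

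Of 6 matrix genes tested among 18 listed, BA lowered the collagen chain gene Col1a2 (-0.79, edgeR adjusted p = 0.000122) and raised the fibronectin gene Fn1 (0.29, 0.0409), and the other 4 were not called. The 6 were not called by edgeR in BA+RT against RT. Of 37 genes in a list of inducers and transcription factors, 23 were tested. With BA alone 4 rose and 3 fell, with a median of 0.02 against 0 for all genes. Those that fell were Tgfb2 (-1.15, edgeR adjusted p = 4.16e-06), Il1a, which encodes an inflammatory cytokine (-1.05, 2.86e-05), and Vegfa (-0.39, 0.00737). Cebpb rose most (0.52, edgeR adjusted p = 5.48e-05), followed by Jun, Tgfbr1 and Tgfbr2 at 0.26, 0.20 and 0.18, none of these last 3 called with reference gene factors. Il1a (-0.73, edgeR adjusted p = 0.00464) and Tgfb2 (-0.51, 0.0354) fell again in BA+RT against RT, and Jun rose (0.42, 0.000878).

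Since these are whole tumours, fewer cells of a type and less of a transcript per cell cannot be told apart. Of 10 tested genes listed as neutrophil markers, Fpr1 (1.14, edgeR adjusted p = 0.000607), Fpr2 (1.08, 1.14e-06) and Itgam (0.56, 3.58e-05) were called higher with BA alone. A further 0 were called lower and 7 were not called, and the median was 0.12 against 0 for all genes. The uncalled ones held S100a8 (-0.43, edgeR adjusted p = 0.334), Csf3r (-0.07, 0.724) and Cxcr2 (-0.40, 0.0794), the last of them called lower with reference gene factors. S100a8 had a median of 2411 CPM in control and 1406 CPM in BA tumours, whose highest value was 5919 CPM. The summed level of the 9 neutrophil markers on panel 1 was 1607 to 2159 CPM in control and 1827 to 2495 CPM in BA tumours. Itgam, Fcgr3, Fpr2 and Il1r2 made up most of that sum, with BA means of 679, 542, 446 and 386 CPM. Csf3r and Cxcr2 added little to it, with BA means of 78.9 and 26 CPM. Mpo and Cxcr1 were too rare to test, with at most 60 and 10 counts in any library, and Ly6g was not on the panels. Which cells the listed markers came from, and the part of neutrophil content in the Mmp9 result, were not tested.

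Where Mmp9, Mmp12 and Mmp13 fell, in BA+RT against RT, 1 of the 10 neutrophil markers was called, Fcgr3 (-0.38, edgeR adjusted p = 0.0062). The median of the 10 was -0.15 against 0.01 for all genes. Csf3r missed the threshold (-0.36, edgeR adjusted p = 0.0571) and was called lower with reference gene factors (-0.39, edgeR adjusted p = 0.0333). Of 7 macrophage markers tested, 3 fell and 0 rose in BA+RT against RT, with a median of -0.25 against 0.01 for all genes. They were Msr1 (-0.40, edgeR adjusted p = 0.00403), Cd14 (-0.37, 0.0348) and Cd68 (-0.25, 0.00964), each a smaller change than the -1.23 of Mmp12. The summed level of all 7 was 10322 to 13757 CPM in RT and 8617 to 11418 CPM in BA+RT tumours. Arg1 made up the largest part of that sum, with means of 7408 and 6571 CPM, and was not called (-0.17, edgeR adjusted p = 0.302). The scavenger receptor Marco had 0 counts in every library. With BA alone, where Mmp12 was not called, 3 of the 7 rose (Arg1, Msr1 and Csf1r) and Adgre1 fell. The interaction was negative past the threshold for 4 of the 7 as it was for Mmp12, namely Msr1 (-0.84, edgeR adjusted p = 0.000137), Arg1 (-0.64, 0.00398), Cd14 (-0.60, 0.0198) and Cd68 (-0.30, 0.0332), the last not under any of the other 3 scalings. It was also negative past the threshold for 4 of the 10 neutrophil markers, and for 3 with reference gene factors, where Fcgr3 was lost (edgeR adjusted p = 0.0595). The part of macrophage content in the Mmp12 result was not tested.

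All 3 osteoclast-type markers tested fell with BA, Ctsk by 1.0, Dcstamp by 0.80 and Acp5 by 0.58 on the log2 scale (edgeR adjusted p = 0.000303, 0.0409 and 0.000369). Their summed level was 1375 to 2349 CPM in control and 1059.8 to 1370.2 CPM in BA tumours, without overlap. In BA against control, 27% of all single genes were called and 2.79% separated without overlap. Dcstamp was rare, at 11.2 to 26.6 CPM in control and 6.75 to 15.5 CPM in BA tumours. Ctsk is also counted among the activating proteases above. Only Acp5 of the 3 was called by edgeR in BA+RT against RT (-0.46, adjusted p = 0.00932). Fibroblast and pericyte markers fell with BA in 5 of 7 cases and rose in 0, led by Cspg4 (-1.72, edgeR adjusted p = 2.91e-07), Acta2 (-1.08, 7.01e-05), Fap (-0.85, 3.76e-06) and Col1a2. Cspg4 (-1.28, edgeR adjusted p = 4.18e-05) and Fap (-0.47, 0.0103) fell in BA+RT against RT as well. The summed level of the 3 on panel 2 was 41407 to 80425 CPM in control and 26875 to 39907 CPM in BA tumours, without overlap. Col1a2 made up most of that sum, with means of 48954 and 28369 CPM. Dcn, another of the 3, was not called (0.38, edgeR adjusted p = 0.172). The sum of the 4 on panel 1 overlapped, at 17236 to 28093 CPM in control (median 20583) and 15186 to 22547 CPM in BA tumours (median 20241). It was mostly Col3a1, with means of 21489 and 18336 CPM, which was not called (-0.23, edgeR adjusted p = 0.258). The 3 epithelial tumour markers tested also fell with BA, Epcam by 0.30, Msln by 0.48 and Muc1 by 1.0 on the log2 scale (edgeR adjusted p = 0.0384, 0.00634 and 0.00119), and their summed level was 10145 to 15273 CPM in control and 8339 to 11177 CPM in BA tumours. With radiation alone, where no member was called, Epcam fell (-0.81, edgeR adjusted p = 2.96e-07) and Msln (0.55, 0.00105) and Muc1 (2.32, 3.41e-10) rose, and in BA+RT against RT the 3 were not called. The part of these cell types in the falls of Mmp9 and Mmp13 was not tested. The 3 mast cell markers tested were not called in either comparison.

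The start regions of Mmp8, Mmp12 and Mmp13 were searched, and that of Mmp9 was not, for the letters TGANTCA, the AP-1 motif bound by Fos and Jun proteins, because AP-1 is known to drive several metalloproteinase genes. The windows run from 250 bases before to 50 after each start in RefSeq (GRCm38.p6) and were searched on both strands. One copy was present in the Mmp13 window, 35 bases before the start, and one in the second of the 2 Mmp12 windows, 44 bases before its start. The Mmp8 window and the first Mmp12 window held none, and the neighbours Mmp3 and Mmp1a held one each. Of 32851 mouse windows of this length, 7.8% held the motif. The stretches are shown with the motif in capitals.
Mmp13, chr9:7272449-7272513, plus strand: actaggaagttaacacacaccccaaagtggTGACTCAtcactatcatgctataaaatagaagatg
Mmp12, chr9:7347300-7347366, plus strand: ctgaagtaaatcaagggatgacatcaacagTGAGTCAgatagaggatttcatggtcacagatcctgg
A match describes letters, not binding.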

How the data were processed

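Tumour RNA from 36 mice was read with 2 targeted amplicon panels (72 libraries). Per the file headers, the deposited table holds raw counts for each amplicon, and its values are whole numbers. A second deposited table holds log2 values from the regularized log of DESeq2, named in the submitters' processing notes with no version, and it served 1 alternative test. The sources used here name no aligner or counter and do not say whether molecular barcodes were counted. Positions are headed GRCh38 while the notes list GRCm38 as well, and the amplicons lie in the named mouse genes on GRCm38. Genomic DNA control rows (10 rows, 2.32e-05% of counts) were left out.

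The panels were fitted separately with edgeR 4.0.16 (R 4.3.3): all 4 groups, TMM, the default expression filter by group, robust quasi-likelihood F test, two-sided, Benjamini-Hochberg adjustment over 1038 genes. The SE is the absolute log2 fold change over the square root of F. The fit was tested on simulated data. Alternatives used DESeq2 1.42.0, limma 3.58.1, other scalings, an exact permutation test and left-out mice. Pairs of libraries of one group differed by at least 6.32 in chi-square per degree of freedom, so none was counted as a duplicate. Separate mice are the replicates. Log2 CPM for correlations used a prior count of 2. Genes named are the 4 members, the 4 most and the 1 least like each by Pearson r within groups, the 4 most like over all tumours, and listed genes that were called, up to 4 a direction. The members and gene lists were chosen with earlier results of these data known. One listed gene is counted but not reported here by name.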

Additional observations from a re-analysis of the deposited data

Results flagged for a closer look

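BA changed Mmp12 differently with and without radiation, by -0.91 on the log2 scale (SE 0.26, edgeR's quasi-likelihood test of the interaction, adjusted p = 0.0236). It was -1.23 in BA+RT against RT, with 8 of 9 tumours below every RT tumour, and -0.32 in BA against control, with 1 of 9 below every control tumour. With each mouse left out in turn the value lay between -1.0 and -0.81 and the adjusted p between 0.0134 and 0.0441.

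The tumour of BA+RT mouse 37 stood apart for Mmp13. It held 3297 CPM, the next highest of its group held 1748 CPM and the lowest 684 CPM, so the gap was 0.593 of the group's range, past Dixon's 95% critical value. On the log2 scale the gap was 0.404 of the range and did not pass. Without this mouse Mmp13 in BA+RT against RT had a log2 fold change of -1.19 and in BA+RT against control one of -1.11, both still called, and BA+RT against BA gave 0.03. The same tumour also held the most Mmp9 of its group, at 3247 CPM. It was 1 of 16 sets of 9 values tested (4 members in 4 groups), and chance flags about 1 in 20.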

How the results depend on the processing

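Of 28 results on the members (7 comparisons of 4 genes), 24 kept their side of the threshold under every alternative run, and no called result changed sign. Among them, 3 uncalled results near 0 did: Mmp8 in BA+RT against RT (-0.1 to 0.15), Mmp13 in RT against control (-0.01 to 0.24) and the Mmp13 interaction (-0.05 to 0.33). Mmp12 in RT against control was called with reference gene factors (0.46, adjusted p = 0.0303). Mmp8 in BA against control was called with DESeq2's Wald test (0.53), limma on the deposited log2 values (0.15) and the exact permutation test (0.52, unadjusted p = 0.0144). The exact permutation test was adjusted over 24 tests of the members only (adjusted p = 0.023), not over the 1038 genes. With single mice left out, Mmp8 in BA against control ranged from 0.44 to 0.60 and was called without BA mouse 10 or 11 or control mouse 1 or 4. Mmp9 in BA+RT against BA ranged from 0.34 to 0.50, and its call was lost without BA mouse 16 or BA+RT mouse 37. The Mmp9 interaction was called with DESeq2's Wald test (0.64) and library totals (0.67), and ranged from 0.55 to 0.75 with single mice left out. Without BA mouse 10 or 15, BA+RT mouse 38, control mouse 7 or RT mouse 19 or 22 it was called. It was also called without control mouse 8 and BA+RT mouse 40 together (0.69), though not without either alone. Neither tumour was flagged as standing apart, and no reason for taking this pair is given. The cause of these moves was not tested.

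The deposited log2 values are shrunk by construction and gave smaller changes, such as -1.34 for Mmp9 in BA against control. Reference gene factors also moved the median over all genes, on the log2 scale, to 0.143 in BA+RT against control, 0.199 in BA+RT against BA and -0.246 in BA against RT. Calls there changed from 243 higher and 251 lower to 387 and 157, from 281 and 274 to 472 and 147, and from 265 and 293 to 118 and 536. In RT against control they changed from 213 and 219 to 422 and 79, in BA against control from 130 and 150 to 99 and 183, and in BA+RT against RT from 38 and 74 to 19 and 96. Counts of genes called stayed within 1.5 times in all comparisons. No member was on both panels, so the other panel could not be tried. No paired analysis was possible because mouse numbers are not shared between groups. Mmp8, at 15 to 75 counts a library, is the member that depth limits most.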
